A study of Mus musculus with 4 samples.

Results

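The DNA replication and proliferation genes described here are 38 genes whose products copy DNA in S phase, supply its precursors or part the chromosomes in mitosis, with Ccnd1 and E2f1 as genes of entry into the cycle and Mki67 as the usual marker of dividing cells. They were picked by symbol from a list of names that was chosen with earlier results of these data known. All 38 were found among the 55335 genes of the deposited table, and all 38 passed the filter on low counts. RNA came from mouse testis at postnatal day 14. There were 2 libraries labelled Znhit1_KO, in which the gene of ZNHIT1, a subunit of the SRCAP remodelling complex, which loads H2A.Z onto chromatin, is disrupted, and these were set against 2 libraries labelled CTRL. The labels give the tissue as testis and the cells as testis cells, so germ cells and somatic cells were sequenced together, whereas the design text speaks of germ cells. The sources used here name no allele, Cre driver or strain and no genotype for the CTRL animals, and they do not say whether a library holds 1 animal or several. The study's title concerns gene expression of pachytene spermatocytes, and the comparison asked here is whether the genes of the cell cycle that precedes meiosis differ between the genotypes.

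Estimated counts summed to between 129531714 and 157790457 per library. Znhit1 itself stood at 3.15 and 2.14 CPM in Znhit1_KO, against 17.3 and 31.9 CPM in CTRL, with each Znhit1_KO value under each CTRL value. Its log2 change was -3.22 (SE 0.403), with an adjusted edgeR p of 0.264, the lowest that edgeR gave to any gene. DESeq2 gave Znhit1 an adjusted p of 1.1e-14, and the authors' deposited table marks it lower. Levels in CPM are counts scaled to library size after TMM normalisation, which sets the libraries to a common base. Tests are edgeR quasi-likelihood F-tests with Benjamini-Hochberg adjustment over the 24116 genes tested.

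DNA replication starts at origins where CDC6 and CDT1 load rings of MCM proteins, which CDC45 and the GINS complex then turn into active helicases. Primase and DNA polymerase alpha begin each strand, the clamp PCNA holds the later polymerases on DNA, and FEN1 and LIG1 finish the lagging strand. In mitosis the BUB and TTK kinases hold back CDC20 until every chromosome is attached, and Aurora kinases and centromere proteins carry out the attachment. In the juvenile testis these genes serve the mitotic divisions of spermatogonia, the last S phase before meiosis and the division of somatic cells, and many genes of the later steps are also used in spermatocytes.

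Cell cycle promoters are known for sites of E2F factors, CCAAT boxes and CHR elements, so 5 promoters are shown with these letters marked. Promoter windows of 250 bases before to 50 after the start were available from RefSeq (GRCm38.p6) for 31 of the 38 members; Aurkb, Pole, Gins2, Ccnd1, Tpx2, Mcm4 and Gins1 were not matched. Letters of an E2F site, searched as TTTCCCGC, TTTCGCGC, TTTGCCGC or TTTGGCGC on both strands, were found for 9 of 31 members (29.0%) and for 2.6% of the 27025 genes in the table. CCAAT, the letters of the box bound by NF-Y, was found for 23 of 31 members (74.2%) and 41.1% of genes. TTTGAA, the usual letters of the cell cycle homology region (CHR), was found for 11 of 31 members (35.5%) and 20.2% of genes. None of these words contains another, though 2 E2F matches can overlap on opposite strands, as in Mcm6. A match is a description of letters and not of binding. In the sequences that follow, capitals mark every match to the 3 motifs. Prim1 and Mcm10 are shown as the members without overlap between groups that had the lowest p on the low side, Cdt1 as the one on the high side, and Mcm6 and Top2a as the members with the most E2F and CCAAT matches, all among members whose RefSeq and GENCODE starts lie within 100 bases.
Prim1, chr10:128014965-128015264, plus strand: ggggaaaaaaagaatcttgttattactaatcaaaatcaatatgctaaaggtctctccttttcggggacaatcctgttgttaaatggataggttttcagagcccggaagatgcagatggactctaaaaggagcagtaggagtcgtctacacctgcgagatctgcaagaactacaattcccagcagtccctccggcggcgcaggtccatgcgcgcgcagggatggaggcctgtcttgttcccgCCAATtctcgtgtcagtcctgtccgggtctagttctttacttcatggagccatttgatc
Mcm10, chr2:5012742-5013041, minus strand: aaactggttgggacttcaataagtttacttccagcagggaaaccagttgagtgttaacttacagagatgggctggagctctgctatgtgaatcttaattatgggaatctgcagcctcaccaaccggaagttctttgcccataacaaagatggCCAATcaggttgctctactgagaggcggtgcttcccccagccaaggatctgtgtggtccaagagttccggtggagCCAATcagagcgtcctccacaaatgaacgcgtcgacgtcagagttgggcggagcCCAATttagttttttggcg
Cdt1, chr8:122567765-122568064, plus strand: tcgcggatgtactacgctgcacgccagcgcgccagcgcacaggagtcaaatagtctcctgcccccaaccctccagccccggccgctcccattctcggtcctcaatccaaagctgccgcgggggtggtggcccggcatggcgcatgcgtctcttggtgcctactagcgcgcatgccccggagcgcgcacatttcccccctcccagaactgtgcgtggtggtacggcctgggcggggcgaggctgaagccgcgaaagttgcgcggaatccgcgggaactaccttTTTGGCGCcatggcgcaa
Mcm6, chr1:128359656-128359955, minus strand: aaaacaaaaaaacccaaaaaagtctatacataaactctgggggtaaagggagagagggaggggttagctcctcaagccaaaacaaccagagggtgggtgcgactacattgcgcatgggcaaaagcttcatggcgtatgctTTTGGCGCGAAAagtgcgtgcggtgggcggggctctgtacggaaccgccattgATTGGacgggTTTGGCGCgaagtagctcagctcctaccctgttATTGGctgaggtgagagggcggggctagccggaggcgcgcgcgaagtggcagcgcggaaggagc
Top2a, chr11:99024140-99024439, minus strand: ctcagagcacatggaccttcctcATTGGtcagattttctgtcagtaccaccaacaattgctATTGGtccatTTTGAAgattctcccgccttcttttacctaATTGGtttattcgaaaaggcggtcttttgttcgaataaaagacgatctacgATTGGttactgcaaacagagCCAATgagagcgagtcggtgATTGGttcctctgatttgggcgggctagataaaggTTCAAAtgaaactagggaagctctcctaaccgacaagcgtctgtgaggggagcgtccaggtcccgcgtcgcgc
Mcm6 held 3 E2F and 2 CCAAT matches and Top2a 6 CCAAT and 2 CHR matches, while Prim1 and Mcm10 held CCAAT matches alone, 1 and 3. Of the 12 members with a window that were lower in both Znhit1_KO libraries, 3 held an E2F match, as did 2 of the 6 that were higher in both and 4 of the 13 whose groups overlapped. A CHR match was held by 2 of the 12 lower, 2 of the 6 higher and 7 of the 13 overlapping members, and a CCAAT match by 9, 2 and 12 of them. A member with several windows was counted if any of them held a match. The E2F matches of Mcm7, Lig1 and Cdc6 lie in windows whose starts are 539, 1543 and 350 bases from the GENCODE start. Among members without an E2F match, that distance was 466 bases for E2f1, 134 for Pcna and 109 for Cenpa. For the windows of Fen1, also without a match, it was 224 and 248 bases. The splits between lower, higher and overlapping members were not tested.

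No member passed the test between genotypes, and the members' median lay near that of all genes. In RNA of whole testis, fewer dividing cells and less RNA per cell cannot be told apart. Their median log2 change was -0.037, against 0.031 over all genes tested, 20 were negative and 18 positive, and the range ran from -0.68 for Prim1 to 0.58 for Cdc20. Sertoli scaling sets the libraries to their summed Sertoli cell markers. With it the members' median was -0.39, against -0.33 over all genes, and 15 of the 18 positive changes turned negative. This scaling lowers all members by a similar amount, Mcm2 from 0.14 to -0.22 and Mcm3 from -0.20 to -0.57. Small positive changes thus turn through the size of that shift, and negative ones grow by it. With 1 library left out the members' median was -0.13 without Znhit1_KO replicate 2, -0.092 without Znhit1_KO replicate 1, -0.090 without CTRL replicate 2 and -0.019 without CTRL replicate 1. With edgeR 0 of 38 passed an adjusted p of 0.05, the lowest being 0.322, where 0% of all genes passed and Znhit1 itself did not. At an unadjusted p under 0.05 there were 3 members (7.89%), Prim1, Mcm10 and Cdc45, all lower, against 10.7% of all genes, 7.75% being lower and 2.99% higher. DESeq2 called 0 members against 4.07% of all genes, limma-voom 0 against 0%, and the authors' deposited table marks 0 of them against 3.5%, with 3.22% marked lower and 0.277% higher. With TMM scaling, the 95% interval of the log2 change excluded a 2-fold difference in either direction for 32 of 38. The exceptions were Mcm10, Gins1, Pola1, Prim1, Rfc4 and Cdc20. Larger changes thus lie outside the TMM intervals for most of these genes, while smaller ones were not resolved. The intervals rest on dispersion that edgeR shares in part across genes, not on the spread of each gene's libraries alone. The bounds also depend on the scaling. Under Sertoli scaling the log2 changes of Prim1 and Mcm10 were -1.04 and -1.02. Those of Cdc45 and Rfc3, whose TMM intervals lie inside a 2-fold difference, were -0.90 and -0.80. The count of 32 thus applies to TMM scaling.

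**Figure D1:**
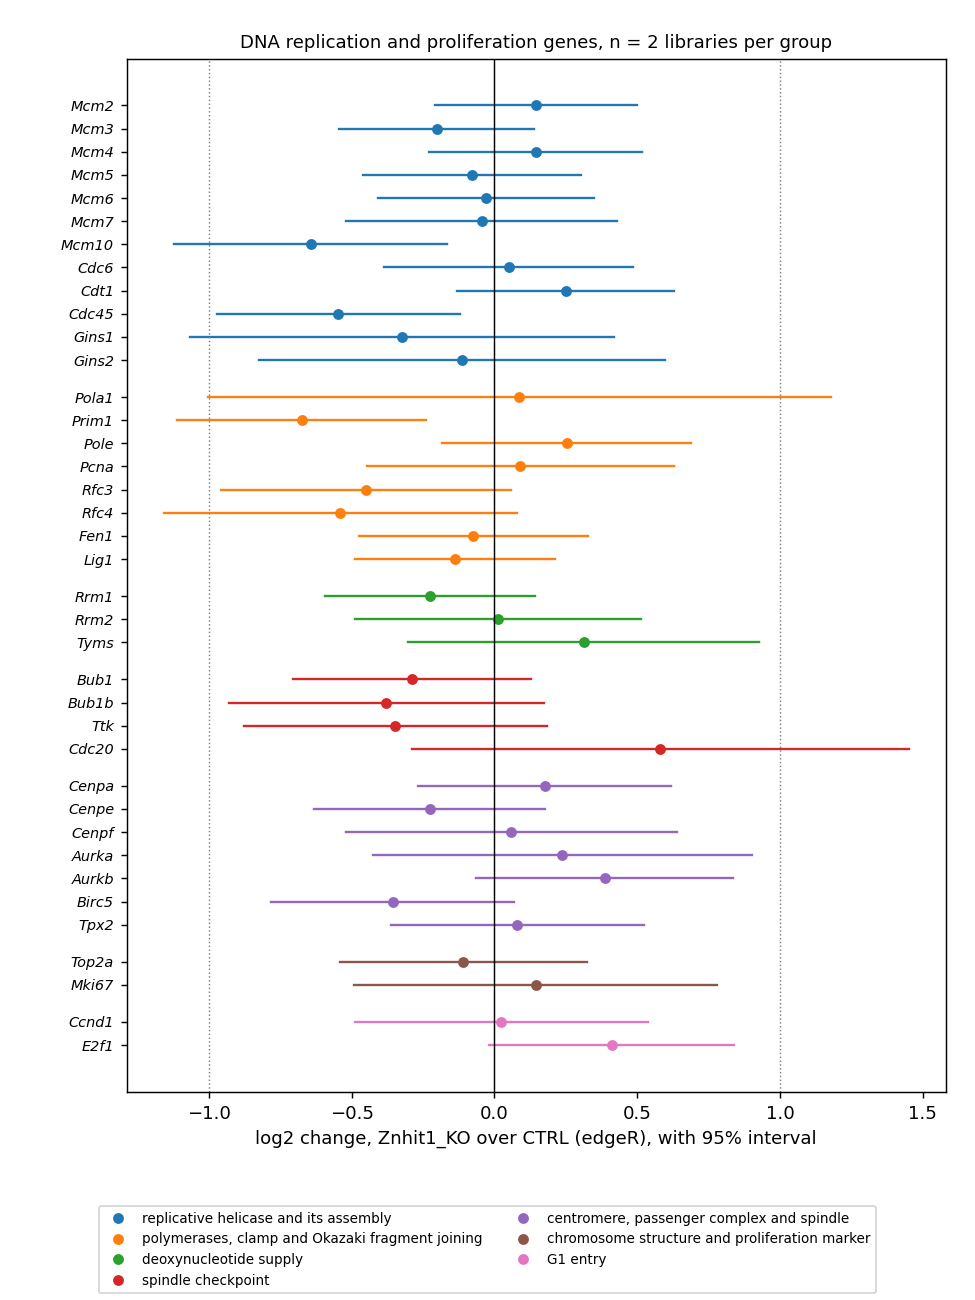
Log2 change of each of the 38 genes, Znhit1_KO over CTRL, with its 95% interval from the edgeR fit (2 libraries per group), coloured by role. Dotted lines mark a 2-fold difference; with TMM scaling the intervals of Prim1, Mcm10 and Cdc45 leave out 0, and of the 18 positive changes 15 turn negative under scaling to Sertoli cell markers.

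In 12 members both Znhit1_KO libraries were below both CTRL ones (31.6%), where the share over all genes was 21.3%. Both lay above for 9 members (23.7%), where it was 21.8%, and for 0 members under Sertoli scaling (5.06% of all genes), where 23 were below (45.9% of all genes). In the remaining 17 the groups overlapped. These counts shift with single libraries, since fewer values overlap less often: 15 were above without CTRL replicate 1 (39.9% of all genes) and 5 without Znhit1_KO replicate 2 (37.4% of all genes), while 19 were below without CTRL replicate 2 and 19 without Znhit1_KO replicate 2 (32.2% and 37.4% of all genes). For 24 members (63.2%) the group means differed by less than the larger gap between 2 libraries of a group, as for 71.2% of all genes.

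Among the genes of the replicative helicase and its assembly, the 6 subunits of the MCM2-7 ring stayed within narrow bounds. Mcm3, which had the largest difference of the ring, stood at 165 and 159 CPM in Znhit1_KO, against 183 and 189 CPM in CTRL, a log2 change of -0.20 (SE 0.136). Mcm2 stood at 169.6 and 178 CPM in Znhit1_KO, against 163 and 151 CPM in CTRL, and Mcm4 at 106 and 105 CPM in Znhit1_KO, against 102 and 89.2 CPM in CTRL, each with a log2 change of 0.14. Mcm3 was thus lower and Mcm2 and Mcm4 higher in both Znhit1_KO libraries, the high side turning under Sertoli scaling, to -0.22 for each. The other subunits overlapped between groups. Mcm5 stood at 163 and 155 CPM in Znhit1_KO, against 181 and 155 CPM in CTRL. Mcm6 stood at 138 and 161 CPM in Znhit1_KO, against 154 and 151 CPM in CTRL, and Mcm7 at 183 and 225 CPM in Znhit1_KO, against 188 and 233 CPM in CTRL. The 3 changes were -0.080, -0.029 and -0.045, each within its standard error, and Mcm7 shares exon bases with Cops6 and Ap4m1 on the other strand, so that part of its count may belong to them.

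Mcm10 and Cdc45, which act when the loaded ring becomes an active helicase, had the largest differences of this group. Mcm10 (chromosome 2, 4989714 to 5012791, mm10) stood at 24.4 and 19.8 CPM in Znhit1_KO, against 36.1 and 33.1 CPM in CTRL, which averaged 22.1 ± 3.26 CPM in Znhit1_KO and 34.6 ± 2.11 CPM in CTRL (SD, n = 2 each). Both Znhit1_KO libraries were low and the groups lay apart. The edgeR log2 change was -0.64 (SE 0.190), with a 95% interval of -1.12 to -0.16, an unadjusted p of 0.0176 and an adjusted p of 0.352. Under Sertoli scaling the change of Mcm10 was -1.02, with an adjusted edgeR p of 0.0922. Cdc45 (chromosome 16, 18780447 to 18811987) stood at 54.9 and 57.3 CPM in Znhit1_KO, against 73.6 and 90.4 CPM in CTRL, with the CTRL libraries further from each other than the Znhit1_KO ones. Its log2 change in edgeR was -0.55 (SE 0.169), with an interval of -0.97 to -0.12 and an adjusted p of 0.369. Under Sertoli scaling the change of Cdc45 was -0.90, with an adjusted edgeR p of 0.104. The gene shares 209 exon bases with Ufd1 on the other strand.

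The loading factors and GINS subunits gave smaller differences. Cdt1, which brings the ring to origins, stood at 48.7 and 47.3 CPM in Znhit1_KO, against 40.9 and 39.8 CPM in CTRL, and its replicates were close in both groups. Its log2 change was 0.25 (SE 0.151), with an adjusted edgeR p of 0.612, and turned to -0.11 under Sertoli scaling. Cdc6, its partner in loading, stood at 21.4 and 21.4 CPM in Znhit1_KO, against 20.5 and 20.9 CPM in CTRL, values that lie close together although the groups did not overlap. Gins1 stood at 10.9 and 16.5 CPM in Znhit1_KO, against 14.5 and 19.8 CPM in CTRL, and Gins2 at 24.7 and 35.6 CPM in Znhit1_KO, against 26.4 and 38.8 CPM in CTRL. In both GINS genes the second library of each genotype was the higher one, so that the groups overlapped and the log2 changes of -0.32 (SE 0.294) and -0.11 (SE 0.282) were not resolved. Gins2 shares 2758 exon bases with Gse1 on the other strand.

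Prim1, the catalytic subunit of primase, had the lowest p of all members. Prim1 (chromosome 10, 128015168 to 128030037, mm10) stood at 16.8 and 16.4 CPM in Znhit1_KO, against 26.4 and 26.7 CPM in CTRL, or 16.6 ± 0.236 CPM in Znhit1_KO and 26.5 ± 0.231 CPM in CTRL (SD, n = 2 each). The Znhit1_KO libraries sat at 0.626 of the CTRL level and replicates were nearly equal. The edgeR log2 change was -0.68 (SE 0.173), with an interval of -1.11 to -0.24, an unadjusted p of 0.00993 and an adjusted p of 0.322. DESeq2 gave an adjusted p of 0.0639. Under Sertoli scaling the change of Prim1 was -1.04, with an adjusted edgeR p of 0.0937. In the authors' deposited table the same gene has 24.2 and 23.1 TPM in Znhit1_KO and 41.1 and 36.9 TPM in CTRL. The other genes that start and extend strands lay on both sides of 0. Pole, the catalytic subunit of the leading strand polymerase, which shares exon bases with an antisense transcript, stood at 207 and 260.2 CPM in Znhit1_KO, against 204 and 188 CPM in CTRL, above CTRL in both libraries by a log2 change of 0.25 (SE 0.173) that turned to -0.099 under Sertoli scaling. Pola1, the catalytic subunit of polymerase alpha, stood at 21.1 and 12.3 CPM in Znhit1_KO, against 21.1 and 10.3 CPM in CTRL. Here the first library of each genotype was the higher one by far, and the log2 change of 0.087 (SE 0.433) says little.

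The clamp gene Pcna stood at 130.4 and 175 CPM in Znhit1_KO, against 126 and 160.3 CPM in CTRL, with overlapping groups and a log2 change of 0.089 (SE 0.213). Its sign turned to -0.25 under Sertoli scaling, to -0.075 without CTRL replicate 1 and to -0.17 without Znhit1_KO replicate 2. Rfc3 and Rfc4, subunits of the loader that opens the clamp, were below CTRL in both Znhit1_KO libraries. Rfc3 stood at 18.7 and 21.0 CPM in Znhit1_KO, against 24.1 and 30.1 CPM in CTRL, a log2 change of -0.45 (SE 0.201). For Rfc4, which shares 194 exon bases with the abundant Eif4a2 on the other strand, the levels were 18.5 and 23.2 CPM in Znhit1_KO and 25.1 and 35.5 CPM in CTRL, a log2 change of -0.54 (SE 0.245). Neither passed, with adjusted edgeR p-values of 0.509 and 0.514. The loader's other subunits, looked at after their values were seen, lay on both sides of 0, with log2 changes of -0.15 for Rfc1, -0.55 for Rfc2 and 0.56 for Rfc5. The lagging strand genes were near their CTRL levels. Fen1, the flap nuclease, stood at 49.4 and 46.5 CPM in Znhit1_KO, against 53.7 and 47.3 CPM in CTRL, and Lig1, the ligase, at 128 and 138 CPM in Znhit1_KO, against 149 and 143 CPM in CTRL. Their log2 changes were -0.075 and -0.14, with overlap for Fen1 and none for Lig1, and both share exon bases with genes on the other strand.

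Of the genes that supply deoxynucleotides, Rrm1 and Rrm2 encode the large and the small subunit of ribonucleotide reductase and Tyms encodes thymidylate synthase. Rrm1 stood at 155 and 168 CPM in Znhit1_KO, against 179.7 and 198 CPM in CTRL, below CTRL in both by a log2 change of -0.22 (SE 0.146). Rrm2 stood at 42.4 and 38.6 CPM in Znhit1_KO, against 45.6 and 34.7 CPM in CTRL, and the Znhit1_KO values lay between those of CTRL. Tyms, one of the members of lowest level, stood at 12.6 and 12.1 CPM in Znhit1_KO, against 11.5 and 8.40 CPM in CTRL. Its log2 change was 0.31 (SE 0.243), above CTRL in both libraries but with 1 CTRL library close by, and it turned to -0.057 under Sertoli scaling.

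The spindle checkpoint genes lay on the low side except for Cdc20. Bub1, a checkpoint kinase at kinetochores, stood at 154 and 191 CPM in Znhit1_KO, against 209.6 and 212 CPM in CTRL. Bub1b, which encodes the inhibitor BUBR1, stood at 89.7 and 105 CPM in Znhit1_KO, against 104 and 149 CPM in CTRL, and the kinase gene Ttk at 44.9 and 48.5 CPM in Znhit1_KO, against 49.5 and 69.3 CPM in CTRL. The groups were apart for Bub1 and Ttk and overlapped for Bub1b, and the log2 changes were -0.29 (SE 0.165), -0.38 (SE 0.219) and -0.35 (SE 0.210). Cdc20, the activator of the anaphase-promoting complex that these proteins restrain, stood at 198 and 336 CPM in Znhit1_KO, against 136 and 221 CPM in CTRL. It had the highest log2 change of the 38, 0.58 (SE 0.345), but 1 CTRL library exceeded 1 Znhit1_KO library and the interval ran from -0.29 to 1.45. Without Znhit1_KO replicate 2 its change was 0.12 and without CTRL replicate 2 it was 0.98, and 53 exon bases are shared with Elovl1 on the other strand. The adjusted edgeR p-values of the 4 genes lay between 0.593 and 0.613.

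Genes of the centromere, the chromosomal passenger complex and the spindle lay on both sides of 0. Aurkb and Birc5 encode the kinase and a targeting subunit of the same passenger complex and had opposite signs. Aurkb stood at 28.4 and 33.0 CPM in Znhit1_KO, against 22.6 and 24.4 CPM in CTRL, a log2 change of 0.39 (SE 0.179), which was 0.033 under Sertoli scaling. Birc5 stood at 20.8 and 22.0 CPM in Znhit1_KO, against 26.9 and 27.9 CPM in CTRL, a log2 change of -0.36 (SE 0.169). In each the groups were apart, and neither passed, with adjusted edgeR p-values of 0.519 and 0.527. Cenpa, the centromeric histone, stood at 28.3 and 33.2 CPM in Znhit1_KO, against 27.4 and 27.0 CPM in CTRL. Cenpe, the kinetochore motor, stood at 113 and 102 CPM in Znhit1_KO, against 137 and 115 CPM in CTRL, and Cenpf, a large kinetochore protein, at 359 and 302 CPM in Znhit1_KO, against 378 and 257 CPM in CTRL. The log2 changes were 0.18 for Cenpa, which turned to -0.18 under Sertoli scaling, -0.23 for Cenpe and 0.059 for Cenpf, where the CTRL libraries lay on both sides of the Znhit1_KO ones. Aurka, the centrosomal Aurora kinase, stood at 63.3 and 87.2 CPM in Znhit1_KO, against 51.4 and 76.2 CPM in CTRL, and its activator Tpx2 at 188 and 153 CPM in Znhit1_KO, against 174 and 149 CPM in CTRL. Both overlapped, with log2 changes of 0.24 (SE 0.264) and 0.080 (SE 0.176).

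Top2a, the topoisomerase that untangles sister chromatids, stood at 505 and 618 CPM in Znhit1_KO, against 570.0 and 641 CPM in CTRL. Mki67 stood at 409 and 353 CPM in Znhit1_KO, against 423 and 267 CPM in CTRL, where CTRL held both the highest and the lowest of the 4 values. The log2 changes were -0.11 (SE 0.171) and 0.14 (SE 0.252). Of the genes of entry into the cycle, Ccnd1, which encodes cyclin D1, stood at 70.9 and 63.4 CPM in Znhit1_KO, against 76.4 and 55.8 CPM in CTRL, also with the CTRL values on either side of the Znhit1_KO ones. Ccnd1 shares 1100 exon bases with LTO1 on the other strand. E2f1, which encodes an activating E2F factor (chromosome 2, 154559407 to 154569892, mm10), stood at 44.9 and 53.6 CPM in Znhit1_KO, against 36.6 and 37.5 CPM in CTRL, a mean of 49.3 ± 6.20 CPM in Znhit1_KO and 37.1 ± 0.677 CPM in CTRL (SD, n = 2 each). Both Znhit1_KO libraries were the higher ones. The edgeR log2 change of E2f1 was 0.41 (SE 0.170), with an interval of -0.018 to 0.84, an unadjusted p of 0.0574 and an adjusted p of 0.483, and it was 0.058 under Sertoli scaling.

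**Figure D2:**
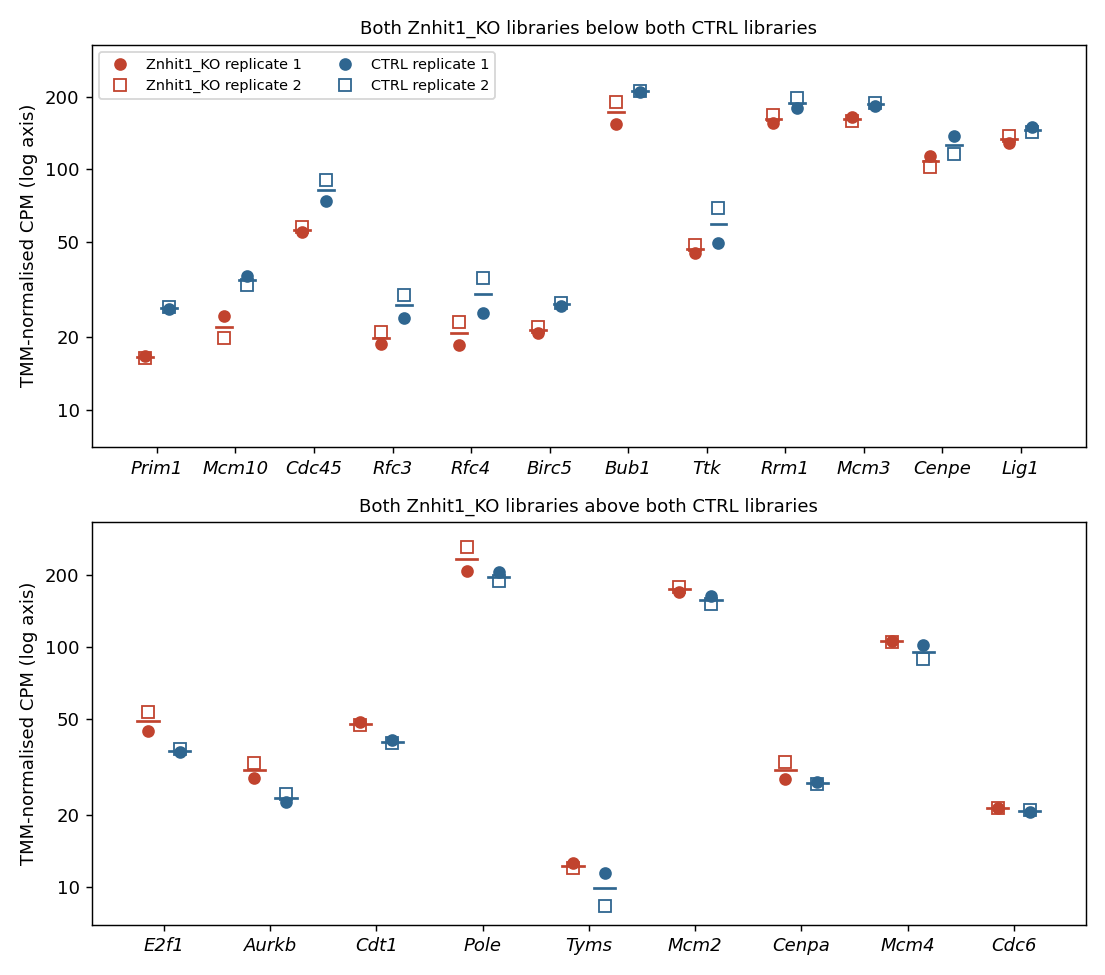
TMM-normalised CPM (log axis) in each of the 4 libraries for the 12 members below and the 9 above CTRL in both Znhit1_KO libraries, ordered by p, with Znhit1_KO left of CTRL and short bars at group means. Prim1, Mcm10 and Cdc45 lie furthest below CTRL, at fold values of 0.626, 0.640 and 0.685; under Sertoli scaling none of the 9 upper genes stays above CTRL in both libraries.

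The order of levels was taken per transcript length from the TPM values of the authors' deposited table, averaged over the 4 libraries. Cdc20 stood highest, with 284 and 477 TPM in Znhit1_KO and 203 and 287 TPM in CTRL, which is a wide spread. Top2a followed with 259 and 309.7 TPM in Znhit1_KO and 303 and 291 TPM in CTRL, then Pcna with 221 and 294 TPM in Znhit1_KO and 222 and 245 TPM in CTRL. The libraries of these 3 genes overlapped, so their order was not resolved. Mcm7 averaged 181 TPM and the other ring genes lay between 70.6 TPM (Mcm4) and 144 TPM (Mcm3), above the loading factors Cdt1 (49.3 TPM) and Cdc6 (11.9 TPM). At the bottom stood Cdc6, Tyms and Pola1, with Pola1 at 10.1 and 5.81 TPM in Znhit1_KO and 10.4 and 4.56 TPM in CTRL. Of the 3 members of lowest p between genotypes, Prim1 and Mcm10 stood in the lower part of this order, at a mean of 31.3 and 21.1 TPM. The third, Cdc45, stood higher, at a mean of 88.1 TPM.

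The spread between libraries of a group was itself patterned. For 30 of 38 members (78.9%) the second library departed from the first in the same direction in both genotypes, as for 78.3% of the 10484 genes with a mean of at least 10 CPM. Cdc20 differed between the libraries by a log2 ratio of 0.76 in Znhit1_KO and 0.70 in CTRL, Gins2 by 0.53 and 0.55 and Aurka by 0.46 and 0.57. On the opposite side lay Pola1, at -0.78 in Znhit1_KO and -1.03 in CTRL, and Mki67, at -0.21 and -0.66. Over the 38 genes these 2 log2 ratios had a Pearson r of 0.85, against 0.74 over the genes of at least 10 CPM, given as a description of 4 libraries. They also ran with transcript length: r with the log2 of merged exon length was -0.50 in Znhit1_KO and -0.57 in CTRL, and 0.038 for the log2 change between genotypes. Over the genes of at least 10 CPM these were -0.27, -0.29 and 0.055. The labels do not say whether libraries of the same number share a litter, day or preparation, and what part length or library preparation had in the spread was not tested.

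**Figure D3:**
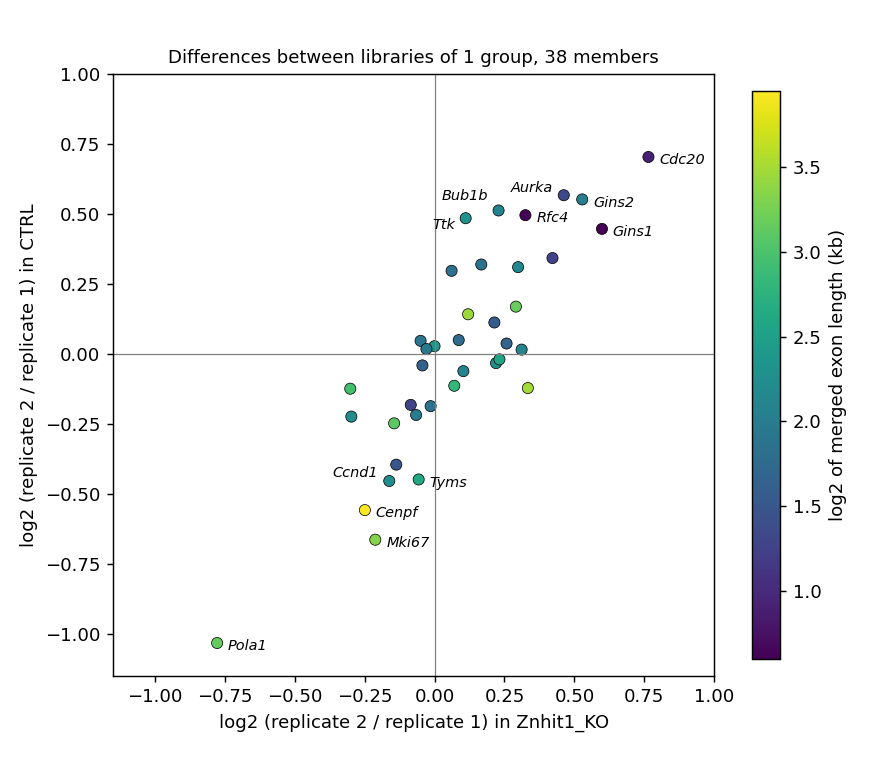
Log2 ratio of replicate 2 over replicate 1 for each of the 38 members, in Znhit1_KO (x axis) and in CTRL (y axis), coloured by merged exon length. The points run along the diagonal (r = 0.85), from Pola1 at -0.78 and -1.03 to Cdc20 at 0.76 and 0.70.

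Other genes of the same processes were read from 3 lists, also chosen with earlier results of these data known. Of 44 other replication genes 0 passed in either direction with edgeR, with 5 at an unadjusted p under 0.05 on the low side and 1 on the high side (13.6% against 10.7% of all genes). Their median log2 change was -0.17, or -0.52 under Sertoli scaling (-0.33 over all genes). With TMM scaling 39 of 44 (88.6%) were negative, against 46.9% of all genes. Leaving out CTRL replicate 1 gave a median of -0.28, and leaving out Znhit1_KO replicate 2 one of -0.29. Both Znhit1_KO libraries were below both CTRL libraries in 20 of them (45.5%, against 21.3% of all genes) and above in 3 (6.82%, against 21.8%). The lowest p-values belonged to Rfc2, another subunit of the clamp loader, to Dna2, a nuclease of the lagging strand, and to Orc3, an origin recognition subunit. Rfc2 stood at 56.9 and 56.5 CPM in Znhit1_KO, against 75.9 and 89.8 CPM in CTRL, a log2 change of -0.55 (SE 0.159), whereas Rfc5 of the same complex had a change of 0.56, the highest of this list. Dna2 stood at 14.6 and 12.2 CPM in Znhit1_KO, against 20.6 and 23.0 CPM in CTRL, and Orc3 at 48.6 and 53.5 CPM in Znhit1_KO, against 68.3 and 75.9 CPM in CTRL, with log2 changes of -0.70 (SE 0.205) and -0.50 (SE 0.155). All 3 sat lower in both Znhit1_KO libraries, with adjusted edgeR p-values between 0.346 and 0.375. The most abundant in CPM, Topbp1 and Hells, had log2 changes of -0.26 (SE 0.221) and -0.17 (SE 0.147).

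Of 44 other mitotic genes 0 passed with edgeR in either direction, and 1 reached an unadjusted p under 0.05 (2.27%, against 10.7% of all genes). The median was -0.14, with 31 negative, and it was -0.49 under Sertoli scaling. With TMM scaling 12 were below CTRL in both libraries (27.3%, against 21.3% of all genes) and 5 above (11.4%, against 21.8%). Without CTRL replicate 2 this median was 0.0019, and without Znhit1_KO replicate 2 it was -0.28. Ube2c, the ubiquitin-conjugating enzyme that works with the anaphase-promoting complex, stood at 37.9 and 38.9 CPM in Znhit1_KO, against 28.3 and 29.2 CPM in CTRL, a log2 change of 0.42 (SE 0.158) and an unadjusted p of 0.0435 in edgeR's fit over all genes. The kinase gene Pbk stood at 33.3 and 42.4 CPM in Znhit1_KO, against 46.3 and 78.2 CPM in CTRL, and the spindle gene Dlgap5 at 24.8 and 28.9 CPM in Znhit1_KO, against 34.7 and 36.2 CPM in CTRL. Both were on the low side, with log2 changes of -0.72 (SE 0.294) and -0.40 (SE 0.174). Racgap1 and Nek2, the most abundant in CPM, had changes of -0.030 (SE 0.139) and -0.19 (SE 0.369).

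The 29 regulators of the step into S phase had the widest range of the 3 lists. EdgeR passed 0 of them in either direction, with 2 lower and 2 higher at an unadjusted p under 0.05 (13.8%, against 10.7% of all genes). The median was 0.087, which turned to -0.27 under Sertoli scaling and was 0.015 and 0.017 without Znhit1_KO replicates 1 and 2. Cdkn1c, the gene of the cyclin-dependent kinase inhibitor p57, stood at 25.3 and 36.4 CPM in Znhit1_KO, against 9.72 and 8.96 CPM in CTRL, a log2 change of 1.72 (SE 0.247) in the edgeR fit, where its adjusted p was 0.264; DESeq2 called it and the authors' deposited table marks it higher. Ccne2, which encodes cyclin E2, stood at 61.5 and 61.3 CPM in Znhit1_KO, against 98.1 and 113 CPM in CTRL, with Znhit1_KO libraries that nearly coincide. Its log2 change was -0.78 (SE 0.153), with an unadjusted p of 0.00307 and an adjusted p of 0.264 in edgeR, and DESeq2 called it at an adjusted p of 0.0156. Rbl1, a member of the retinoblastoma family, stood at 52.3 and 62.7 CPM in Znhit1_KO, against 83.1 and 96.2 CPM in CTRL, a log2 change of -0.64 (SE 0.174). Tfdp1 and Cdk2, the most abundant in CPM, had changes of -0.098 (SE 0.147) and -0.16 (SE 0.145).

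Markers of germ cell stages and of somatic cells, in lists also chosen with earlier results known, were read beside these results. Over all genes, 21.3% were below and 21.8% above CTRL in both libraries. Summed over the 38 members, levels were 4226 and 4594 CPM in Znhit1_KO, against 4473 and 4423 CPM in CTRL, a log2 ratio of the group means of -0.012. The 14 pachytene spermatocyte markers summed to 1063 and 1524 CPM in Znhit1_KO, against 2011 and 4073 CPM in CTRL, with all 14 below CTRL in both Znhit1_KO libraries and a median log2 change of -1.73, which was -0.93 without CTRL replicate 2. The 12 early meiotic prophase markers had a median of -0.45, between -0.71 without Znhit1_KO replicate 2 and -0.26 without CTRL replicate 2, with 6 below in both libraries and sums of 1895 and 2595 CPM in Znhit1_KO, against 2648 and 3667 CPM in CTRL. Medians of the spermatogonial markers were nearer to 0, though single markers ran from -0.38 to 0.93 (undifferentiated) and from -0.67 to 0.31 (differentiating). The 14 of undifferentiated spermatogonia had a median of 0.14, which turned to -0.22 under Sertoli scaling, with 0 below and 3 above in both libraries and sums of 564 and 520.4 CPM in Znhit1_KO, against 495 and 517 CPM in CTRL. The 11 of differentiating spermatogonia had a median of -0.070, with 3 below and 1 above and sums of 879 and 951 CPM in Znhit1_KO, against 926 and 981 CPM in CTRL. The 18 Sertoli cell markers had 15 above in both libraries and sums of 9633 and 8298 CPM in Znhit1_KO, against 6792 and 7087 CPM in CTRL. Leydig cell, macrophage, endothelial, peritubular myoid and red cell lists had medians of 0.37, 0.68, 0.22, -0.0026 and 0.98, the endothelial one turning to -0.13 under Sertoli scaling and the small peritubular myoid one to 0.0083 with total count scaling. The undifferentiated spermatogonia median was 0.36 without CTRL replicate 1, and the Sertoli cell median of 0.46 was 0.20 without Znhit1_KO replicate 1. Without Znhit1_KO replicate 2 the macrophage median was 0.013, the endothelial one 0.074 and the red cell one -1.73, and under Sertoli scaling the Leydig cell one was 0.011. None of the markers was at 0 in any library, and the part of cell makeup in the values of the 38 members was not tested.

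**Figure D4:**
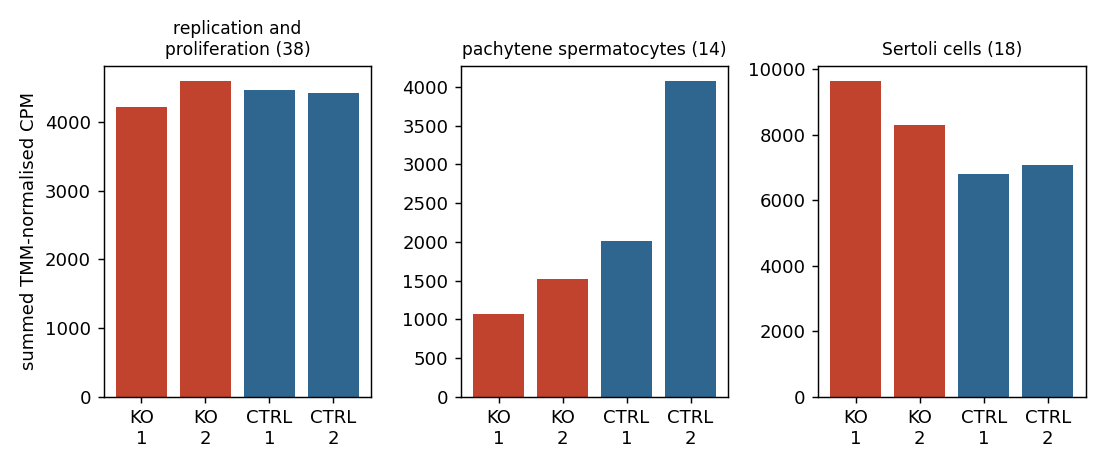
Summed TMM-normalised CPM in each library of the 38 members, of 14 pachytene spermatocyte markers and of 18 Sertoli cell markers, with Znhit1_KO left of CTRL. The members' sums lie between 4226 and 4594 CPM with overlapping groups, while the other sums are apart, lower in Znhit1_KO for the pachytene list and higher for the Sertoli list.

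**Figure D5:**
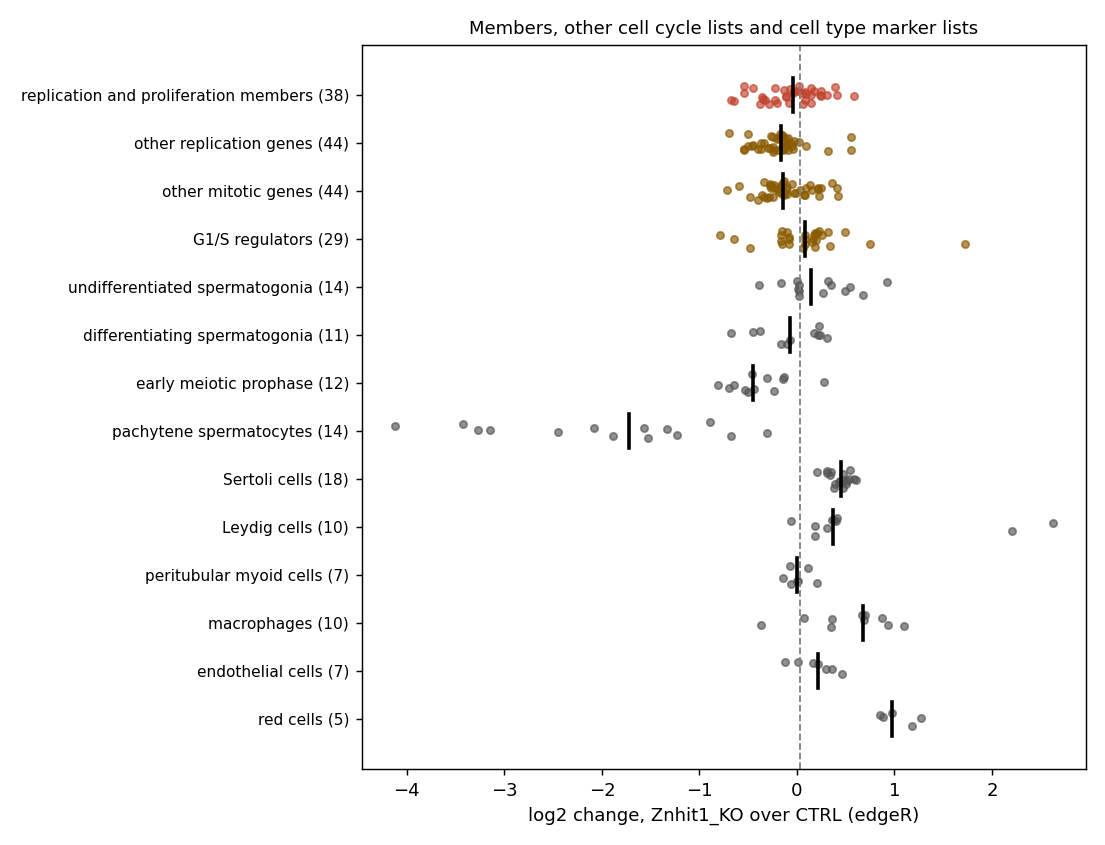
Log2 change, Znhit1_KO over CTRL, of each gene (point) in the 38 members, in 3 other cell cycle lists and in 10 cell type marker lists, with the median as a black bar and the median of all genes tested (0.031) as a dashed line. The members' median lies at -0.037 and that of the pachytene list at -1.73.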

How the data were processed

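Poly(A) RNA of 4 testis libraries was sequenced, 2 Znhit1_KO and 2 CTRL. The submitters' processing notes name the mm10 build and, as tools of the authors, DESeq2 1.38.3, StringTie 2.2.1, HISAT2 2.2.1 and cutadapt 2.5. The sources used here do not say how genes were counted, with which annotation or whether by strand. Values of the deposited gene table are whole numbers with an excess of multiples of 4 among low values, which were taken as estimated counts. The authors' deposited comparison table holds TPM, mean normalised signal, log2 changes, Wald scores, and raw and adjusted p-values; of these, TPM and the table's own up and down marks are quoted.

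Counts were tested with edgeR 4.0.16 in R 4.3.3 (TMM, filterByExpr, quasi-likelihood F-test with genotype as the only term, Benjamini-Hochberg over 24116 genes), checked on simulated counts. Standard errors came from the F statistic, intervals from its degrees of freedom, and the common BCV (biological coefficient of variation) was 0.349. Alternatives were limma 3.58.1 (voom), DESeq2 1.42.0, other scalings, no filter, a replicate block, and each library left out. With 2 libraries a group, p-values rest on the spread between those libraries, moderated by dispersion estimates that are shared in part across genes. The 2 libraries of a group were not duplicates: 3.00% of detected genes had equal counts in Znhit1_KO and 2.89% in CTRL. GENCODE M21 (mm10) gave positions and exon overlaps; merged exons of all isoforms gave lengths. The 38 members, the lists and the rule for named genes (all members; of each other list the 3 of lowest p and the 2 highest in CPM; for marker lists, the 2 highest in CPM could be named) were chosen with earlier results of these data known.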

Additional observations from a re-analysis of the deposited data

How the results depend on the processing

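Counts of 0 called members were kept with DESeq2, limma-voom, median-of-ratios and total count scaling, Sertoli scaling, no filter on low counts and each library left out. The exception was the fit with a replicate block, which called 5 members against 2737 genes (11.3%) in all: Mcm10, Cdc45, Prim1 and Rfc4 lower and Cdc20 higher, at adjusted edgeR p-values of 0.0171, 0.0228, 0.0178, 0.0349 and 0.0106. The block also called 8 of the 44 other replication genes, 4 of the 44 other mitotic genes and 5 of the 29 G1/S regulators. Libraries of the same number deviated together with a correlation of 0.421, but with 2 pairs and no label for what the number stands for, no pairing was assumed. Genes called over the whole table numbered 1027 with DESeq2 and 0 to 754 with 1 library left out, the 754 being without CTRL replicate 1; the cause was not tested. The members' median ran from -0.13 to -0.019 with 1 library left out, those above CTRL in both libraries from 5 to 15 and those below from 15 to 19. In the same fits the shares over all genes ran from 30.5% to 39.9% above and from 32.2% to 37.4% below. Scaling to Sertoli markers gave a members' median of -0.39, 0 above and 23 below (5.06% and 45.9% of all genes), and a median of all genes of -0.33. With the authors' TPM, an alternative chosen after seeing the data, 7 were above and 11 below (22.5% and 20% of all genes). Sertoli scaling turned 15 members, to log2 changes of -0.22 (Mcm2), -0.22 (Mcm4), -0.31 (Cdc6), -0.11 (Cdt1), -0.31 (Pola1), -0.099 (Pole), -0.25 (Pcna), -0.36 (Rrm2), -0.057 (Tyms), -0.18 (Cenpa), -0.32 (Cenpf), -0.10 (Aurka), -0.30 (Tpx2), -0.23 (Mki67), -0.35 (Ccnd1). It also turned the medians of the G1/S regulators (-0.27), undifferentiated spermatogonia (-0.22) and endothelial cells (-0.13), and total count scaling that of peritubular myoid cells (0.0083). Leaving out 1 library turned 14 members, with ranges of -0.18 to 0.030 (Mcm5), -0.18 to 0.046 (Mcm6), -0.24 to 0.12 (Mcm7), -0.43 to 0.19 (Gins2), -0.39 to 0.69 (Pola1), -0.17 to 0.27 (Pcna), -0.16 to 0.016 (Fen1), -0.17 to 0.22 (Rrm2), -0.19 to 0.36 (Cenpf), -0.043 to 0.55 (Aurka), -0.11 to 0.19 (Tpx2), -0.30 to 0.00077 (Top2a), -0.15 to 0.51 (Mki67), -0.18 to 0.27 (Ccnd1). It turned the medians of all genes tested (-0.067 to 0.060), other mitotic genes (-0.28 to 0.0019), differentiating spermatogonia (-0.19 to 0.033), peritubular myoid cells (-0.17 to 0.17), red cells (-1.73 to 3.07). The other 24 members kept their sign.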

Other observations

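The inhibitors of cyclin-dependent kinases and the cyclin E genes act on the same step as E2f1 and Ccnd1, and were looked at after their values were seen. Cdkn1a, the gene of p21, stood at 12.5 and 10.5 CPM in Znhit1_KO, against 7.56 and 6.15 CPM in CTRL, a log2 change of 0.75 (SE 0.243) and an adjusted edgeR p of 0.387. Cdkn1b, the gene of p27, stood at 64.3 and 57.4 CPM in Znhit1_KO, against 53.9 and 48.2 CPM in CTRL, and Cdkn2b, the gene of p15, at 14.6 and 10.3 CPM in Znhit1_KO, against 9.98 and 7.77 CPM in CTRL. Like Cdkn1c, these 3 were above CTRL in both Znhit1_KO libraries, as were 21.8% of all genes tested. None of the 3 passed, and the log2 changes of Cdkn1b and Cdkn2b were 0.25 (SE 0.160) and 0.49 (SE 0.276). Sertoli scaling moved the median of the G1/S regulators, the list that holds these genes, from 0.087 to -0.27. Cdkn2c, the gene of p18, was below CTRL in both, at 33.7 and 36.4 CPM in Znhit1_KO, against 42.5 and 55.6 CPM in CTRL, a log2 change of -0.48 (SE 0.195). Cdkn2a and Cdkn2d overlapped between groups, with log2 changes of 0.17 (SE 0.220) and -0.083 (SE 0.199). Of the E cyclins, Ccne1 stood at 15.9 and 17.5 CPM in Znhit1_KO, against 16.7 and 14.8 CPM in CTRL, a log2 change of 0.087 (SE 0.196), beside -0.78 (SE 0.153) for Ccne2. The difference between these genes was not tested.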
